A study of Mus musculus with 4 samples.

Results

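On arrays of mouse embryonic stem cells differentiating into cardiomyocytes, 90 RefSeq mRNAs, of 20845 measured, were the transcripts standing furthest above both the earlier and the later stage in both populations of day 5.5. Interferon-induced and nucleic acid sensing genes, called interferon-induced below, made up 24 of the 90. Chemokines, cytokines and growth factors made up 10, Ly6, S100, galectin-3 and membrane protein genes 9, and extracellular matrix genes 8. These roles were assigned after the members were known and to no other transcripts, so no share of all transcripts stands beside the counts. On a list of 62 known interferon-stimulated genes, 16 were members. The members were chosen by their measured values: a score took the lower log2 signal of the 2 day 5.5 populations minus the higher log2 signal of the other 2 populations, the 100 highest scores were kept among 15832 transcripts called well above background in both day 5.5 populations, and 10 of these 100, which the rule named, were left out. The height of the day 5.5 signals above the other stages is thus a description and not a finding. Of the 90, 88 could be given a gene symbol, for 87 genes.

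Flk1+ MPCs were mesodermal precursor cells, taken at day 4.5 after differentiation on gelatin without leukemia inhibitory factor and sorted for Flk1, the VEGF receptor encoded by Kdr. PCBs were cardioblasts at day 5.5 (PDGFRα+Flk1- cells) induced from these by CsAYTE, a mixture of Cyclosporin A, a calcineurin inhibitor, with Y27632, which inhibits ROCK, the antioxidant Trolox, and EW7197, which inhibits ALK5. sfPCBs were the cells of day 5.5 that formed spontaneously without CsAYTE, with DMSO as the vehicle. M+CMs were αMHC-GFP+ cardiomyocytes at day 10.5, in which GFP is driven by the promoter of the cardiac myosin gene Myh6; the study describes such cells as descended from PCBs, and the label of this array does not itself name CsAYTE. Each population was measured on 1 array, so no test between populations was possible, and the only error at hand is the scanner software's error of a spot, which leaves out differences between cultures. In the study's culture protocol, sorted Flk1+ cells were plated on a layer of OP9 stromal cells treated with mitomycin C or on gelatin. The CsAYTE response was described on OP9 cells. The study reports that, from mouse cells, no PCBs were induced without feeder cells. Flk1+ MPCs had not met the OP9 layer. Whether the day 5.5 cells were sorted before RNA extraction for the arrays is not given in the sources used here. Nor is it given how many OP9 cells a sort for PDGFRα+Flk1- cells would leave, or whether the M+CMs had grown on OP9 cells. The day of sampling, the time after plating and any RNA carried over from OP9 cells, which are mouse cells too, cannot be told apart in these arrays, and neither can a larger number of cells of a type and more RNA per cell.

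The arrays had between 73.3% and 76.2% of 43020 spots well above background and no saturated spots. The median SD between repeated spots was 0.0937 on the log2 scale for sfPCBs and 0.0539 to 0.0558 for the other arrays. The label markers mostly followed the labels. Kdr had scaled signals (signals brought to a common 75th percentile, in arbitrary units) of 47509 in Flk1+ MPCs, 4719 and 942 in the day 5.5 sfPCBs and PCBs, and 2384 in M+CMs, and Mesp1, a factor of early mesoderm, had 42204, 179, 3.34 and 10.2, the last 2 of these not well above background. Myh6 had 40.6, 43.5, 6157 and 112738 in the same order (Flk1+ MPCs, sfPCBs, PCBs, M+CMs), which is kept wherever 4 signals are listed below. Pdgfra, the gene of the receptor that defines PCBs, had 7237, 3647, 9136 and 918, so sfPCBs were below Flk1+ MPCs in the marker of their own name.

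Interferon-stimulated genes are switched on when type I or type II interferon binds its receptor and STAT factors enter the nucleus, in part together with IRF9. Their products detect foreign RNA and DNA, degrade or trap viral RNA and raise antigen presentation. The STAT and IRF complexes bind a DNA motif called ISRE. Chemokine genes such as Cxcl1 and the cytokine gene Il6 are classical targets of NF-kappaB, which binds the kappaB motif, and fibroblasts and bone marrow stromal cells are known to produce them on inflammatory stimulation. In a cardiac differentiation culture neither group is a lineage marker.

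The promoters of 7 members are shown because they carry the motif by which each class is known. They are the 250 bases before the annotated start in RefSeq on GRCm38.p6, written 5′ to 3′ along the gene, with the bases matching the motif in capitals. The choice was made after the values were seen. The ISRE core searched was GAAA, any 2 bases and GAAA, on both strands. In Isg15, Oas1a and Bst2 several matches overlap and form 1 run, and the match in Trim30a lies on the opposite strand.
Isg15, chr4:156200819-156201068 (-): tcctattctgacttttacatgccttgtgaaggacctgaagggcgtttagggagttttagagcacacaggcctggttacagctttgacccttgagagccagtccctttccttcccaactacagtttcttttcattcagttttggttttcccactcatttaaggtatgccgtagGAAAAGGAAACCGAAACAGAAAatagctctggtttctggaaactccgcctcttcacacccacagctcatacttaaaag
Oas1a, chr5:120907526-120907775 (-): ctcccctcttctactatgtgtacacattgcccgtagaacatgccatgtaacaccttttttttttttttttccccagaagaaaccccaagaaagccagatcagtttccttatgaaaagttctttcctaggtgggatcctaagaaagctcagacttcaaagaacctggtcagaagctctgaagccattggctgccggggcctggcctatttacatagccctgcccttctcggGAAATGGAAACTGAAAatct
Bst2, chr8:71537473-71537722 (-): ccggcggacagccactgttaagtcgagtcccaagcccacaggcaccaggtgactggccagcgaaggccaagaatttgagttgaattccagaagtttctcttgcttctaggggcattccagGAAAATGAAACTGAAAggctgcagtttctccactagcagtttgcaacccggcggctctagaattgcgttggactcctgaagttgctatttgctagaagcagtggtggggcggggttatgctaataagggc
Trim30a, chr7:104465194-104465443 (-): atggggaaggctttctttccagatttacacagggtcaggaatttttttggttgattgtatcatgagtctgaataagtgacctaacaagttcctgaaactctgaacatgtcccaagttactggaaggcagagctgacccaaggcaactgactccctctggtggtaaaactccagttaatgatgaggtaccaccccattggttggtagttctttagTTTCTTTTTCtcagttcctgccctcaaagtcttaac
The kappaB letters searched were GGGA, any base and TTTCC, or GGG, any 2 bases and TTCCC, on both strands, and 3 genes of the chemokine and cytokine group held them.
Il6, chr5:30012864-30013113 (+): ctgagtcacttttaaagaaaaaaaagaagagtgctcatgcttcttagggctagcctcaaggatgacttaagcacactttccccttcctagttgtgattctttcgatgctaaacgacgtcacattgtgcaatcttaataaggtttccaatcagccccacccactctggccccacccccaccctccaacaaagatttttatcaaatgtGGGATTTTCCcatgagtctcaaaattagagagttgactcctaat
Cxcl1, chr5:90890995-90891244 (+): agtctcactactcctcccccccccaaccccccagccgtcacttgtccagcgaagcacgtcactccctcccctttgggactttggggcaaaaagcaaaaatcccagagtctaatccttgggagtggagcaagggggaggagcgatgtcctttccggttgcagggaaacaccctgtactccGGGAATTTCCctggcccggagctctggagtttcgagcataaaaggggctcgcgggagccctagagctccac
Cxcl2, chr5:90903649-90903898 (+): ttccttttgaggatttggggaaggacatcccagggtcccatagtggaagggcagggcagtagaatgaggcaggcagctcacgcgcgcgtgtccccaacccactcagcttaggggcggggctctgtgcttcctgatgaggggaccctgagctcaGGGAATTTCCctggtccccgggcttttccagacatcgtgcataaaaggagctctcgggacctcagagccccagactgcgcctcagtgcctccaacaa
In the order printed, the match nearest the start began at -66, -14, -124 and -36 for the ISRE core and at -44, -71 and -97 for kappaB, counted from the start.

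The ISRE core was in 22.8% of the 79 promoter windows (300 bases, 250 before and 50 after the start) that the table held for 66 member genes, against 3.44% of all 32851 windows and 3.02% of the 15186 windows of genes compared. In the windows of the interferon-induced members it was in 66.7% of 24, in 12 of 19 genes, and in the windows of the chemokine and cytokine group it was in none of 7. The kappaB letters were in 42.9% of those 7 windows, in 4.17% of the interferon-induced windows and in 6.33% of all member windows. They were in 2.16% of all windows and 2.66% of those of genes compared. The AP-1 motif TGANTCA was in 20.3% of the member windows, 7.81% of all windows and 5.56% of those of genes compared. In the same order, the TEAD motif ACATTCC was in 10.1%, 3.85% and 3.04%. The GAS motif TTCNNNGAA was in 6.33%, 8.3% and 6.95%, and the TATA box letters TATAAA in 20.3%, 13.6% and 8.71%. Paralogs such as Apol9a with Apol9b and Trim30a with Trim30d can share promoter sequence, so windows are not independent of each other. The role groups were formed from known roles of the genes after the members were known, so their motif shares partly describe the labels. The arrays measured no binding, and a match is a description of the letters.

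**Figure D1:**
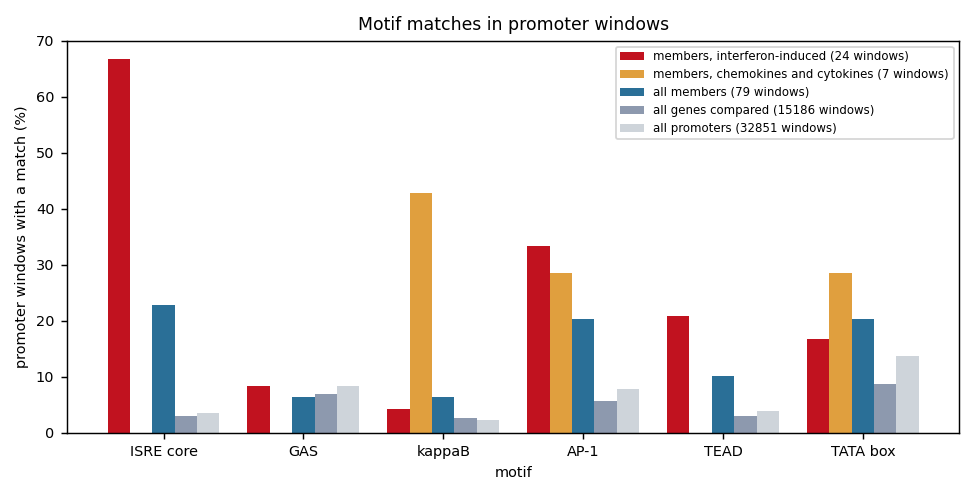
Share of promoter windows (y axis, percent) that hold each motif (x axis), for interferon-induced members, members of the chemokine and cytokine group, all members, all genes compared and all promoters. The ISRE core stands at 22.8% in all members against 3.44% of all promoters. It stands at 66.7% of 24 windows in interferon-induced members, a group formed from known roles. The kappaB letters stand at 42.9% in the chemokine and cytokine group, which has only 7 windows.

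Over the 90 members, the median score was 5.55 on the log2 scale (quartiles 4.83 and 6.36, range 4.49 to 10.06). With dim arrays raised to a bound, as described below, the median was 5.37, against -0.66 over all transcripts compared. The software's error of a score had a median of 0.25 and reached 1.45 for members with signals near the background elsewhere. In Flk1+ MPCs 45 members were not well above background (3.11% of all transcripts compared), and in M+CMs 35 (2.73%). Both were so for 32 members, 13 more only in Flk1+ MPCs and 3 more only in M+CMs. The other 42 were well above background on at least some spots of all 4 arrays. Over all members, 7 were so on only some spots of Flk1+ MPCs or M+CMs. Against a signal that was not well above background, a ratio has only a bound: the dim array was raised to its lowest signal well above background (15.9 in Flk1+ MPCs, 15.4 in M+CMs) where its own signal was lower, and the ratio is given as at least that many fold. With these bounds the lower day 5.5 signal was a median of 41.4-fold above the higher of the other 2 (quartiles 23.9 and 68.0, range 4.87 to 614). All 90 were then at least 4-fold above, as against 2.19% of all transcripts compared (2.45% without the bounds), 55 were at least 30-fold above and 13 at least 100-fold. The rule fixes these counts.

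**Figure D2:**
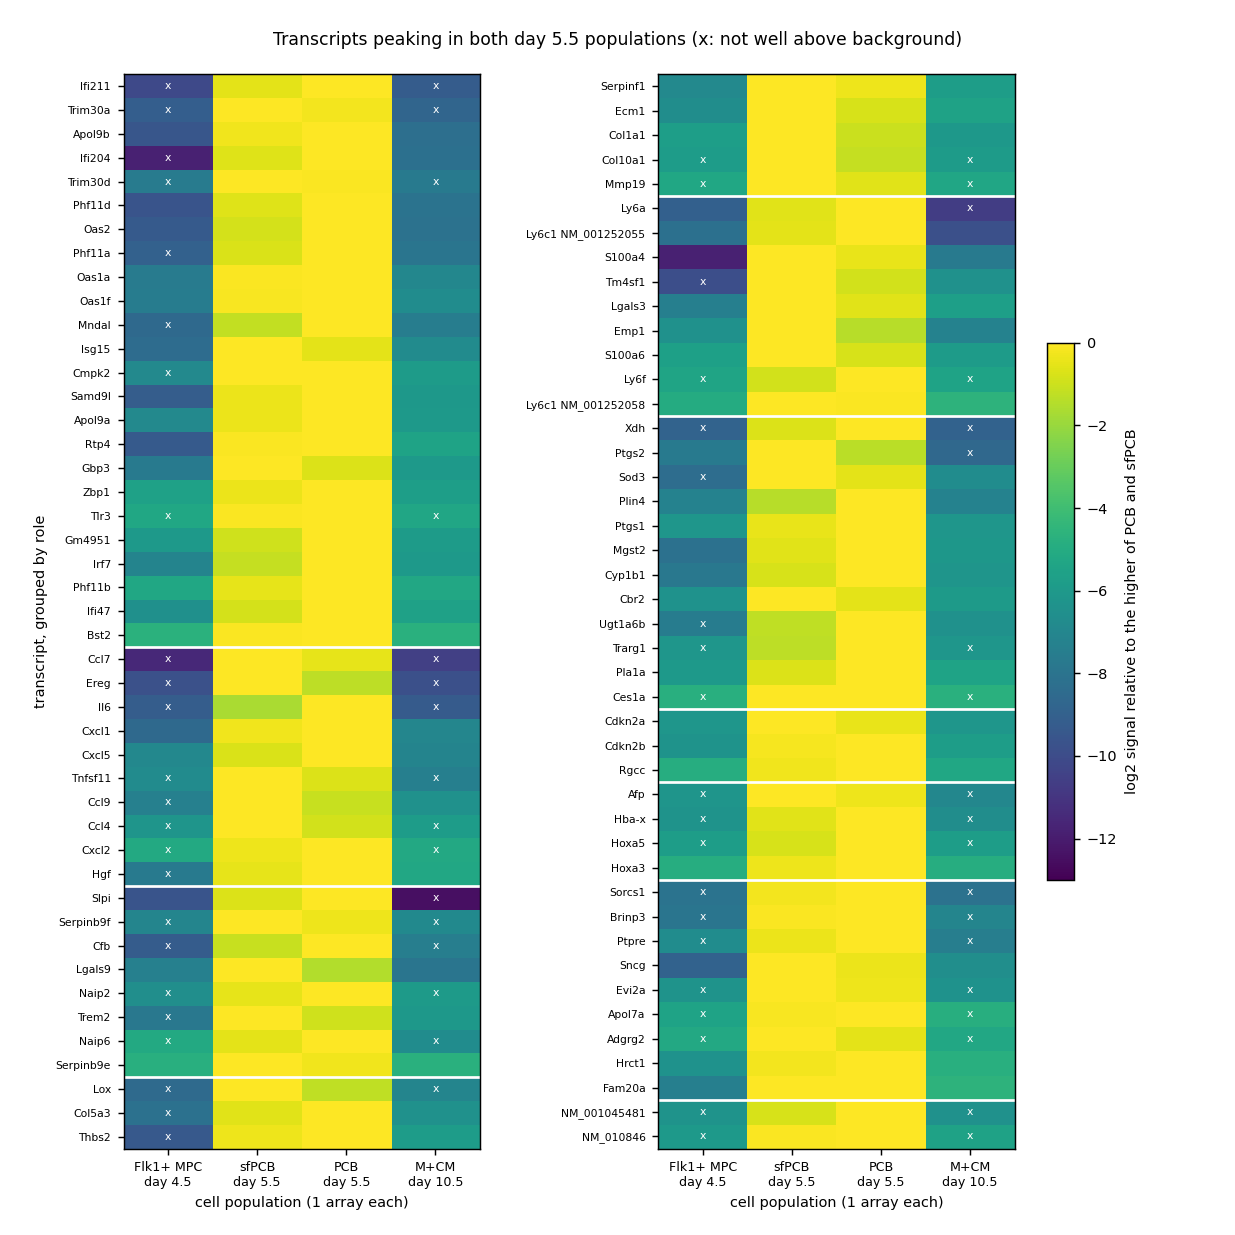
Heat map of the members (rows, all but 1, grouped by role and ordered by score within each role) in the 4 populations (columns, 1 array each), colored by log2 signal relative to the higher of PCBs and sfPCBs. An x marks a signal not well above background, as in the columns of Flk1+ MPCs and M+CMs for many members.

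Among secreted ligands, Ccl7, a chemokine that draws monocytes, had the highest score (10.06, error 0.73). Its scaled signals were 4.70 in Flk1+ MPCs, 13730 in sfPCBs and 9784 in PCBs, and 9.14 in M+CMs, so PCBs were at least 614-fold above both other populations, neither of which was well above background. Ereg, epiregulin, a ligand of the EGF receptor, had 3.71, 3236, 1342 and 3.58 (at least 84.1-fold). Il6, the cytokine interleukin 6, had 3.51, 643, 2038 and 3.33 (at least 40.3-fold). These 3 ligands were not well above background in either other population, and Il6 was the one of them with the higher signal in PCBs. Cxcl1, a neutrophil chemokine, had 24.8, 7887, 9437 and 71.1, well above background everywhere and 111-fold higher in sfPCBs than in M+CMs. Cxcl5, of the same chemokine family, had 23.2, 1708, 2849 and 20.4. Ccl9 had 19.8, 3246, 1509 and 37.8, with the Flk1+ MPC signal not well above background. Hgf, hepatocyte growth factor, the ligand of Met, had 4.13, 593, 834 and 22.8, so that sfPCBs were 26.0-fold above M+CMs. The chemokine, cytokine and growth factor group held 10 members, 6 of them not well above background in both other populations, and its fold values ran from 6.94 to 614. The low end was held by Tnfsf11, the osteoclast factor RANKL (at least 24.5-fold), Ccl4 (at least 8.78-fold) and Cxcl2 (at least 6.94-fold).

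The interferon-induced and nucleic acid sensing group was the largest, with 24 members, a median bounded score of 5.78, and fold values of 8.67 to 256. Apol9b, an interferon-induced apolipoprotein L, had 41.8, 25301, 30179 and 98.7 (256-fold above M+CMs). Ifi211 and Ifi204, proteins of the PYHIN family, some of which sense DNA, had 4.02, 3092, 4441 and 7.48 (at least 194-fold), and 4.01, 9113, 14249 and 48.9 (186-fold). Both day 5.5 signals were far above the other 2 in each case, and PCBs were above sfPCBs in all 3. Oas2, an oligoadenylate synthetase, whose product activates the RNA-degrading enzyme RNase L, had 28.4, 10036, 17921 and 64.4. Its relatives Oas1a and Oas1f had 164, 29788, 31213 and 245, and 181, 31193, 33898 and 327. The Oas genes differed little between PCBs and sfPCBs in the case of Oas1a and Oas1f (log2 differences of 0.07 and 0.12, errors of 0.20), while Oas2 was 0.84 higher in PCBs. Trim30a, a tripartite motif protein known to dampen Toll-like receptor signaling, had 3.25, 1806, 1530 and 4.15 (at least 95.9-fold), and Trim30d, its neighbor, had 4.71, 896, 840 and 4.55 (at least 52.7-fold). Phf11d, a PHD finger protein, had 23.2, 11711, 18147 and 69.2, and Phf11a 15.1, 4524, 7526 and 30.4. Isg15, a ubiquitin-like protein attached to other proteins, had 140, 47405, 33163 and 449, and was higher in sfPCBs. Bst2, tetherin, which holds budding virus at the cell surface, had 2191, 52896, 56752 and 2140, so it was well above background throughout, with sfPCBs 24.1-fold above Flk1+ MPCs. Gbp3, a guanylate-binding protein, was 39.0-fold above M+CMs and had 87.1, 17631, 10903 and 279. Irf7, the factor that amplifies interferon production, had 22.1, 1407, 3115 and 48.6. The rest of the group were Mndal, Cmpk2, Samd9l, Apol9a, Rtp4, Zbp1, Tlr3, Gm4951, Phf11b and Ifi47, between at least 8.67-fold (Tlr3, a sensor of double-stranded RNA) and 79.6-fold (Mndal).

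Among innate immune proteins and protease inhibitors, Slpi, a secreted inhibitor of leukocyte proteases, had 61.9, 30618, 49008 and 8.71, 495-fold above Flk1+ MPCs with the M+CM signal not well above background. Cfb, factor B of the alternative complement pathway, had 3.72, 1047, 2233 and 12.7 (at least 65.7-fold). Lgals9, galectin-9, had 35.7, 5686, 1979 and 23.1, higher in sfPCBs. Serpinb9f had 4.91, 673, 539 and 6.01 (at least 33.8-fold). The others were Naip2 (at least 43.1-fold) and Naip6 (at least 18.9-fold), which sense bacterial proteins, Trem2, a receptor of myeloid cells (35.4-fold), and Serpinb9e (22.5-fold). Of the 8 genes of the group, 4 were not well above background in both other populations.

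Ly6, S100, galectin-3 and membrane protein genes made up 9 members. Whether their RNA came from stromal cells was not tested. Ly6a, known as Sca-1, a marker of mesenchymal stromal and progenitor cells, had 41.3, 14292, 21679 and 13.7 (346-fold above Flk1+ MPCs). Ly6c1, a related GPI-anchored protein, had 151, 30182, 43640 and 48.2 for the transcript NM_001252055 and 47.2, 1526, 1454 and 62.6 for NM_001252058. Both its transcripts were thus members, with 200-fold and 23.2-fold ratios. S100a4, a calcium-binding protein used as a fibroblast marker, had 22.04, 78546, 57353 and 400, with PCBs 143-fold above M+CMs. S100a6, next to it in the genome, had 2357, 113802, 67042 and 1923 (28.4-fold), with its lowest signals well above background. Tm4sf1, a membrane protein, had 12.4, 11780, 6465 and 139, and Emp1, another, had 291, 24951, 9412 and 166. Lgals3, galectin-3, was 33.5-fold above M+CMs and Ly6f at least 4.87-fold above both. In 6 of the 9 transcripts of this group, sfPCBs exceeded PCBs.

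Extracellular matrix genes numbered 8. Lox, lysyl oxidase, which crosslinks collagen, had 4.31, 1579, 677 and 11.5 (at least 42.5-fold). Thbs2, thrombospondin 2, had 4.57, 2429, 3016 and 53.6, and Col5a3 14.1, 2663, 4052 and 47.4. Col1a1, the main collagen of connective tissue, had 1110, 58341, 28386 and 860 (25.6-fold). Col1a1 was well above background in every population, with sfPCBs 2.06-fold above PCBs, whereas Mmp19, a matrix metalloproteinase, was near the background in the others (3.20, 121, 80.9 and 3.10, at least 5.08-fold). Serpinf1 was 43.1-fold, Ecm1 26.3-fold and Col10a1, the collagen of hypertrophic cartilage, at least 5.23-fold above the higher of the other 2.

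Among enzymes, Xdh, xanthine dehydrogenase of purine breakdown, had 4.24, 1251, 1997 and 4.11 (at least 78.5-fold). Ptgs2 (COX-2) and Ptgs1 (COX-1), the cyclooxygenases of prostaglandin synthesis, had 19.9, 4112, 1617 and 10.6, and 166, 8707, 11777 and 166. Sod3, extracellular superoxide dismutase, had 18.4, 6080, 4138 and 60.1. Plin4, a coat protein of lipid droplets, had 99.8, 5703, 15250 and 99.8, with equal signals in Flk1+ MPCs and M+CMs. Mgst2, Cyp1b1, Cbr2, Pla1a, Ugt1a6b, Ces1a and Trarg1 were between 46.6-fold (Mgst2) and at least 16.6-fold (Trarg1) above. The other groups were small: 3 cell cycle inhibitors, of which Cdkn2a, an inhibitor of cyclin-dependent kinases, had 12.4, 893, 672 and 12.3, and 4 Hox or early lineage genes, of which Afp, alpha-fetoprotein of visceral endoderm and liver, had 6.41, 471, 376 and 3.72 and Hba-x, the embryonic alpha-like globin, 5.79, 308, 465 and 4.65. Afp and Hba-x were not well above background outside day 5.5, and Cdkn2a was so on only some of its spots. Of the 10 remaining named members, Sorcs1, a sorting receptor, had 3.43, 761, 893 and 3.29 (at least 47.7-fold), Brinp3 was at least 51.7-fold and Ptpre, a tyrosine phosphatase, at least 48.6-fold above both others, and Sncg, gamma-synuclein, had 27.8, 13298, 10117 and 140 (72.5-fold). Hrct1, Fam20a, Apol7a, Evi2a and Adgrg2 were between 23.9-fold (Hrct1) and at least 5.07-fold (Adgrg2). Cdkn2b was 48.3-fold, Rgcc 24.4-fold, Hoxa3 23.9-fold and Hoxa5 at least 8.19-fold above, and the 2 members without a symbol, NM_001045481 and NM_010846, were at least 16.3-fold and 16.5-fold above.

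PCBs and sfPCBs differed in CsAYTE, and the score, which takes only the lower of the 2, does not fix which was higher. The log2 difference of PCBs minus sfPCBs had a median of 0.19 over the members (quartiles -0.44 and 0.60, SD 0.71), against 0.01 (SD 0.83) over all transcripts compared. PCBs were higher for 55 members (61.1%, against 51.3% of all transcripts compared; 46 without scaling of the arrays) and lower for 35, and 56 (62.2%, against 32.7% of all) differed by more than 2 software errors (median error 0.204). At least 2-fold higher in PCBs were 7 members (7.78%, against 4.52% of all compared), and at least 2-fold lower 8 (8.89%, against 7.14%). The share of 2-fold lower members was near that of all transcripts. Without scaling the split was 5 higher and 11 lower, when the median over all transcripts compared moved to -0.14.

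The members furthest toward PCBs were Il6 (log2 difference of 1.66), Plin4 (1.42), Trarg1, a regulator of glucose transporter traffic (1.32), Ugt1a6b, a glucuronosyltransferase (1.24), and Mndal, a PYHIN protein (1.17). Those furthest toward sfPCBs were Lgals9 (-1.52), Emp1 (-1.41), Ptgs2 (-1.35), Ereg (-1.27) and Lox (-1.22). By role, beside the 51.3% of all transcripts that were higher in PCBs, 19 of 24 interferon-induced members were higher there, with a median difference of 0.38, as were 9 of 12 enzymes (0.63), while 2 of 8 matrix genes (-0.70) and 3 of 9 Ly6, S100 and surface genes (-0.45) were. Without scaling, the interferon-induced count was 14 of 24 (median 0.22) and the enzymes' 8 of 12 (0.47), and matrix and surface genes kept the counts 2 and 3. Whether these differences exceed the spread between cultures was not tested.

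**Figure D3:**
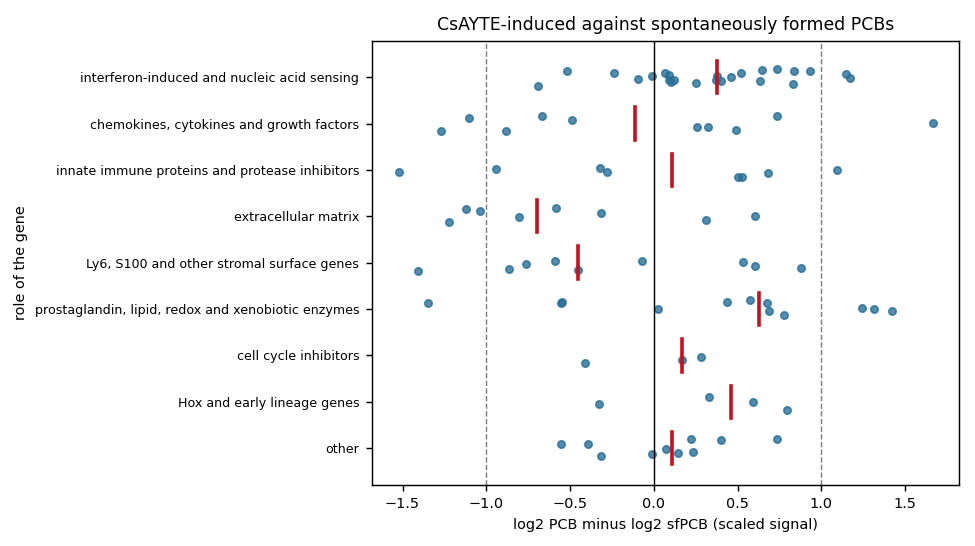
Log2 difference of PCBs minus sfPCBs (x axis, scaled signal) for each member with a symbol, by role (y axis), with red bars at the medians and dashed lines at 2-fold. Matrix genes lie mostly below 0 (median -0.70) and interferon-induced genes mostly above it (median 0.38).

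M+CMs compared with Flk1+ MPCs show how the members stood after and before day 5.5. The score takes only the higher of the 2, and 58 members had at least 1 of them well above background, with a dim array raised to its lowest signal well above background. Over these, M+CMs were higher for 43 and lower for 14, 1 more (Ugt1a6b) had no direction since it was lower only through the bound, and the median log2 difference was 0.85, whereas over the 15644 transcripts compared in this way 48.1% were higher and the median was -0.06. At least 2-fold higher in M+CMs were 23 of 58 (39.7%, against 21.3% of all), and at least 2-fold lower 3 (5.17%, against 22.2%). With an offset of 50 added to all signals, which shrinks ratios of dim signals, the median was 0.31 and 11 members were at least 2-fold higher. Where all spots were well above background in M+CMs (51 members), the signal there was a median of 1.76% of that in PCBs (quartiles 1.07 and 2.58, range 0.110 to 4.30). Where all spots were so in Flk1+ MPCs (40 members), the median was 0.870% (quartiles 0.406 and 1.79, range 0.126 to 3.91). The sets of members behind these 2 medians are not the same.

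The members furthest above their Flk1+ MPC signal in M+CMs were S100a4 (log2 difference of 4.18), Rtp4, an interferon-induced chaperone of receptors (3.84; 60.7 and 866), Tm4sf1 (at least 3.12), Samd9l, an interferon-induced antiviral protein (3.08; 10.4 and 88.0) and Fam20a, a secreted pseudokinase (2.81; 16.8 and 118). S100a4 and Samd9l were well above background on only some of their spots in Flk1+ MPCs. Furthest below were Slpi (-2.01), Ly6c1 by NM_001252055 (-1.65), Ly6a (-1.42) and Emp1 (-0.81), with the values of Slpi and Ly6a being bounds, since neither was well above background in M+CMs. Ugt1a6b (-0.67 with the bound) had measured signals of 4.66 and 10.05. S100a4 and Ly6a, both used as markers of fibroblasts or stromal cells, thus lay at opposite ends.

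Other genes of the same pathways were read from lists of known genes, with the members and the transcripts left out of them set aside, since their scores had chosen them. The lists were themselves chosen with earlier results of these data known, so the counts are a description. Of 62 interferon-stimulated genes, 56 were measured and 55 were well above background in both day 5.5 populations, of which 16 were members and 4 had been left out. Among the other 35, 34 had a score above 0 and 22 at least 2, with a median of 2.32, against 14.1% above 0 and a median of -0.66 over all transcripts compared. The 1 gene compared with a score below 0 was Ifitm1 (-2.36). The signals of the list's measured genes other than these 20 summed to 102760, 282771, 275370 and 34464, and Ifitm1 alone had 73336 of the sum in Flk1+ MPCs. Of the guanylate-binding proteins and immunity-related GTPases, 12 of 15 were above 0 (median 2.69, 1 member set aside), and of MHC class I antigen presentation genes, none a member, 15 of 20 (median 1.33). Chemokines and cytokines were split. Of 33 measured genes, 12 were not well above background in both day 5.5 populations, 7 were members and 3 had been left out, and among the remaining 11, 8 were above 0, 2 were at least 2 and the median was 0.31.

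Markers of stromal cells were read in the same way, since OP9 cells were part of the culture protocol. Fibroblast matrix genes other than 3 members and 2 left out had a median score of 0.74 (18 of 28 above 0). The signals of the whole list summed to 397094, 717742, 499632 and 115743, of which Fn1, fibronectin, supplied 314178 in Flk1+ MPCs, and without Fn1 to 82916, 555239, 337662 and 101895. Stromal and fibroblast identity genes other than the 3 members had a median of -0.47 (7 of 15 above 0) and summed to 61312, 172162, 104848 and 40098. Adipocyte genes, none a member, had a median of -0.90 (6 of 16 above 0) and summed to 11293, 49538, 77532 and 57169. Of defining genes, Fabp4 of adipocytes had 102, 7958, 23663 and 384, Pparg 542, 5255, 4613 and 806, and Adipoq 40.2, 24.9, 254 and 72.9. Of stromal markers, Cd44 had 102, 862, 298 and 238, Vcam1 5.93 (not well above background), 570, 417 and 905, and Thy1 1065, 102, 147 and 74.2. Fabp4, Pparg and Cd44 were thus higher in both day 5.5 populations than in either other, whereas Adipoq was so only in PCBs, Vcam1 was highest in M+CMs, and Thy1 was highest in Flk1+ MPCs. The part of OP9 RNA in the members' signals was not tested.

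Leukocyte and macrophage genes summed to between 1876 and 2828 on the 4 arrays. Of 14 measured, 9 were well above background in both day 5.5 populations, and 1 of these 9 had a score above 0. Lyz2 and C1qc were not well above background in either day 5.5 population, whereas Csf1r had 414, 377, 380 and 358. Endothelial genes had a median of -1.04, with none of 9 above 0, and cardiomyocyte genes a median of -7.88, with none of 14. The score takes the lower day 5.5 signal, so it does not show endothelial genes high in sfPCBs only. Cdh5 had 36.2, 987, 6.48 and 3.31 and Tek 42.4, 1463, 40.4 and 29.4, whereas Flt1 had 4017, 3573, 263 and 249. Without Kdr the endothelial list summed to 26449, 28338, 12962 and 5620. Smooth muscle genes had a median of -1.33, p53 targets -1.14, epicardial genes 0.39, and primitive streak and pluripotency genes -6.26 and -1.74, with no member in these lists. Without the members and transcripts left out, complement genes had a median of 0.12, matrix proteases 0.65, secreted growth regulators -0.19 (10 of 25 above 0), osteoblast genes 0.41, blood genes -0.49, and endoderm and epithelium -2.35.

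**Figure D4:**
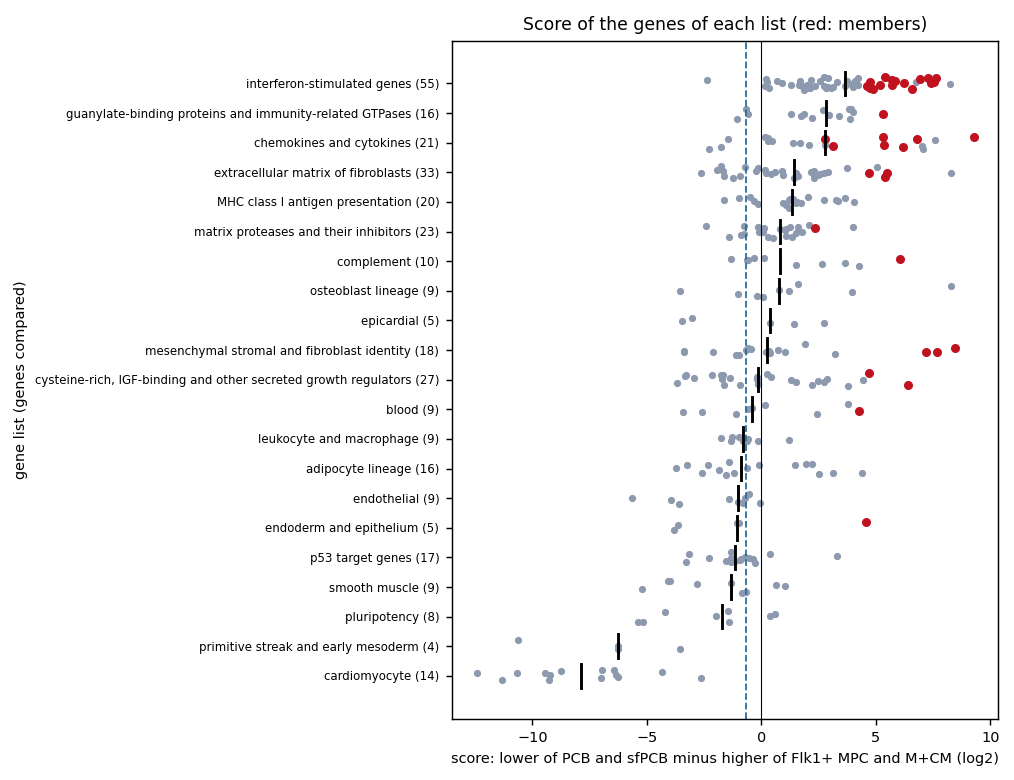
Score (x axis, log2 scale, dim arrays raised to their bound) of each gene of each list (y axis, with the number of genes compared), with members in red, list medians as black bars and the median of all transcripts compared as a dashed line. The black bars include the members, which the score chose: for interferon-stimulated genes the bar is at 3.65, against 2.32 without members and transcripts left out, and for cardiomyocyte genes at -7.88.

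By place in the genome, 37 of the 87 genes had another member within 5 protein-coding genes, in 15 groups. The same share was not computed for other sets of genes, so the count only describes the members. The groups included Afp with Cxcl5, Cxcl1, Cxcl2 and Ereg on chromosome 5, Oas2 with Oas1f and Oas1a on the same chromosome, Ifi204 with Mndal and Ifi211 on chromosome 1, Phf11a, Phf11b and Phf11d on chromosome 14, Ly6a with Ly6c1 and Ly6f on chromosome 15, and Cdkn2a with Cdkn2b on chromosome 4. Several groups are families of related genes, in which a probe may bind the RNA of a relative. The members of a family are thus not separate evidence. Of 16 members with several probes, every probe had a score above 2, with a median range of 0.64 between probes of a member and a largest range of 5.31, for NM_001045481, which has no symbol here. The remaining 74 members rest on 1 probe. Other transcripts of the same genes that were measured and not members were Sorcs1 by NM_001252501 (score 1.59) and Zbp1, a sensor of Z-form nucleic acid, by NM_021394 (4.41).

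Near the limit of the top 100, the last 5 inside were Naip6 (score 4.58), Fam20a (4.57), Ly6f (4.55), Ly6c1 by NM_001252058 (4.54) and Serpinb9e (4.49). The next 5 outside were Casp4 (4.48), Tmem140 (4.48), Apbb1ip (4.46), Fosl1 (4.46) and Fgf7 (4.45). These neighboring scores differed by less than any error of a score, so the edge of the set is one of rank. Oasl1, Cxcl10, Ccl2, Ccl5, Oasl2, Spp1, Anxa1, Ifit1, Col6a3 and Ifit3, which are of the same score range, are the 10 left out. Their scores were 8.22, 7.58, 7.06, 6.99, 6.74, 8.27, 5.92, 5.49, 5.04 and 4.68.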

How the data were processed

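RNA of 4 populations was measured on 1-color Agilent arrays, 1 array per population on 1 slide. The authors deposited the spot intensity values of Feature Extraction 11.5.1.1 (design build mm9), with a background-subtracted processed signal, its error and quality flags, and a table of log2 processed signals that were not scaled between arrays. From the intensity values, control spots and flagged spots (87 to 144 per array) were left out, signals were multiplied by 1 factor per array, to bring the 75th percentiles to 2198.43, and log2 values were averaged per RefSeq identifier. A transcript was compared when at least 0.5 of its spots were well above background in both day 5.5 arrays. Symbols and promoters came from RefSeq (GRCm38.p6), whose coordinates were not mixed with mm9; 20502 of 20845 identifiers had a symbol. No test was run, since each population had 1 array. The members, the gene lists and the roles were chosen with earlier results of these data known. Named were the 30 members with the highest score, members of the lists (up to 5 each), the 5 highest and 5 lowest of each comparison and the 5 on each side of the limit; others were named after their values were seen. The values of 1 member are not reported here. The ranking step was tested on simulated data. Alternatives were quantile normalization and normexp (limma 3.58.1, R 4.3.3), no scaling, another percentile, an offset of 50, other treatments of spots and probes, detection on all arrays, and the deposited log2 table. Python 3.11.15, numpy 2.4.6, pandas 2.3.3 and matplotlib 3.10.9 were used. The number of arrays limits the precision.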

Additional observations from a re-analysis of the deposited data

Results flagged for a closer look

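Features without a curated mRNA identifier, which the rule does not use, also held transcripts of this pattern. Of 7224 such features well above background in both day 5.5 populations, 20 had a score at or above 4.49, that of the last of the top 100 (0.277%, against 0.632% of the RefSeq mRNAs compared). They had no symbol here, and with 1 array per population there was no test.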

How the results depend on the processing

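No paired analysis was possible because each population had 1 array. No summary value over the members and no score of a named member changed direction under the alternatives run. Of the medians of whole gene lists, that of secreted growth regulators (-0.13) was 0.08 without scaling and with the deposited table, and with detection on all 4 arrays those of complement (0.81), stromal identity (0.26), osteoblast (0.76) and epicardial genes (0.39) were -0.10, -0.07, -0.06 and -3.02. By role, the median difference of PCBs from sfPCBs turned without scaling for innate immune proteins (0.11 to -0.04) and for members of other roles (0.11 to -0.04). The median score (5.55) was 5.90 without scaling and with the deposited log2 table, 4.04 with normexp and 4.23 with an offset of 50, and these last 2 raise dim signals by construction. With normexp and the offset, the median log2 difference of M+CMs from Flk1+ MPCs (0.85) was 0.26 and 0.31, the members at least 2-fold higher in M+CMs (23) numbered 8 and 11, and those at least 2-fold lower (3) numbered 0 and 1; 60 and 64 members stayed among the top 100. Detection on all 4 arrays kept 42 members, all 42 at least 4-fold above, with 0 dim in either other population, 2 at least 2-fold higher and 3 lower in PCBs (7 and 8), and 1 lower by 2-fold or more in M+CMs. Of 648 other values, 472 moved by less than their error, 102 moved down and 74 up. Signals near the background limit what the ratios of 48 members can show.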
